A study of Danio rerio with 6 samples.

Results

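The 5 mature miRNAs of the zebrafish miR-30 family, dre-miR-30a, dre-miR-30b, dre-miR-30c, dre-miR-30d and dre-miR-30e-5p, were compared with each other in small RNA libraries of whole embryos. They were taken by name from the 230 mature miRNAs of the deposited table, each from 1 row of its own precursor. The name pattern also matched miR-30e-3p, the opposite arm of the miR-30e-2 hairpin, which is described on its own and was kept out of the family sum. The prefix dre is left out from here on. The family was chosen by the values of miR-30a, whose normalized reads were known to differ between the morpholinos at both stages, so these differences between morpholinos are given as a description and not as a test.

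Embryos of the wild-type AB strain received 1.5 ng of MO-Tbx5a, which blocks translation of tbx5a, or the same amount of the control morpholino MO-Ct, by injection into the yolk at the 1-cell stage. Each library came from a batch of 50 whole embryos. At 24 hpf there were 2 libraries per morpholino and at 48 hpf there was 1. Which morpholino each library of the later stage received is in doubt, because the study's supplement lists the opposite direction for most of its miRNAs at that stage, miR-30a included. The libraries of 48 hpf are therefore named as labelled, and the results that turn with their names are also given with the names exchanged. The knockdown is transient, Tbx5a protein is not measured in small RNA libraries, and the heart is a small part of a whole embryo, so fewer cells of a type and less RNA per cell cannot be told apart in these values.

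miRNAs of the miR-30 family share a seed, the short stretch at the 5′ end that pairs with target mRNAs, and differ from each other mostly in the bases behind it. They are found in many tissues of vertebrates, including muscle, heart, kidney and endothelium. In zebrafish, the family is known to target smoothened, a component of Hedgehog signalling, in early muscle, and the Notch ligand dll4 in endothelial cells. In frog embryos it is needed for the pronephros, and in rodent heart it represses connective tissue growth factor. The 3p arm of a miR-30 hairpin carries another seed and is usually the arm that is discarded.

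In the RefSeq table of the assembly GRCz12tu, the genes of the family stand in pairs, except for 1 member. The precursors of miR-30b and miR-30d are next to each other in the order of miRNA genes along their chromosome. Both lie within the span of zfat, a zinc finger gene, and of the lncRNA LOC141378064. The precursors of miR-30c and miR-30e-5p are also next to each other in this order, and that of miR-30c lies within the lncRNA LOC137487406. Distances were not compared. The precursor of miR-30a has no other member on its chromosome. It lies within the span of the protein-coding gene LOC100334439, and its nearest miRNA gene is mirlet7d-2.

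The authors divided the reads of each library by its DESeq size factor, and these values are called normalized reads. From the step between low values, 1699876 to 3148889 reads per library were estimated to fall on the mature miRNAs. The study's supplement lists far fewer miRNA reads for every library, with the widest relative gap at 48 hpf. If its numbers hold, the counting intervals given below are too narrow, most of all at 48 hpf. For that stage the supplement lists more reads for MO-Tbx5a than for MO-Ct. The estimates there were 2542309 (labelled MO-Ct) and 1940327 (labelled MO-Tbx5a). The early embryonic miR-430a, miR-430b and miR-430c together took 46.0% to 58.7% of the normalized reads at 24 hpf, against 15.2% (labelled MO-Ct) and 5.15% (labelled MO-Tbx5a) at 48 hpf. All 3 were tested at 24 hpf, and 0 of them were called. The lists of muscle, neural, blood, epidermal and epithelial miRNAs had 0 miRNAs called at 24 hpf by limma, with 4, 3, 2, 2 and 4 tested. These names had to match exactly. When the 3p arm was taken where the table names one, miR-133a-3p, miR-133b-3p, miR-142a-3p and miR-203b-3p were added. With them, 6 muscle, 3 blood and 3 epidermal miRNAs were tested, and 0 of them were called. Of all 210 miRNAs tested, 7.62% were called, so 0 calls in lists this short say little about these tissues. The study's own DESeq test listed miR-206, miR-133a, miR-9-5p and miR-205 as lower in MO-Tbx5a at 24 hpf. The summed level of the muscle miRNAs was then 7524 and 8339 in the MO-Ct batches and 6078 and 5825 in the MO-Tbx5a batches, and its part in the values of miR-30a was not tested. At 48 hpf, 2 of the 3 neural miRNAs were at least 2-fold higher in the library labelled MO-Tbx5a, as were 2 of the 2 blood miRNAs matched by exact name. The added miR-142a-3p was lower there. Of 219 miRNAs, 25.6% passed 2-fold in either direction and 9.13% were at least 2-fold lower in that library. Exchanging the doubted names would make the same neural and blood miRNAs at least 2-fold lower in MO-Tbx5a, and miR-142a-3p higher. Both listed hypoxia miRNAs, miR-210-3p and miR-210-5p, are arms of miR-210 and so not separate markers. They were called lower in MO-Tbx5a at 24 hpf, but the study's qRT-PCR did not uphold the change of miR-210-5p. Their summed level was 1205 and 427 in the MO-Ct batches and 326 and 187 in the MO-Tbx5a batches.

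The order of the members by level was the same in all 6 libraries. miR-30e-5p had the most normalized reads and was followed by miR-30d, miR-30c, miR-30a and miR-30b. In MO-Ct embryos at 24 hpf the means were 35925 ± 1427 for miR-30e-5p, 17101 ± 139 for miR-30d, 10429 ± 634 for miR-30c, 4143 ± 211 for miR-30a and 1141 ± 30.5 for miR-30b (SD, n = 2 libraries each). No neighbours in this order overlapped within a group at 24 hpf. Mature miRNAs have nearly the same length, but small RNA libraries capture some sequences better than others, so the order is that of the reads.

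**Figure D1:**
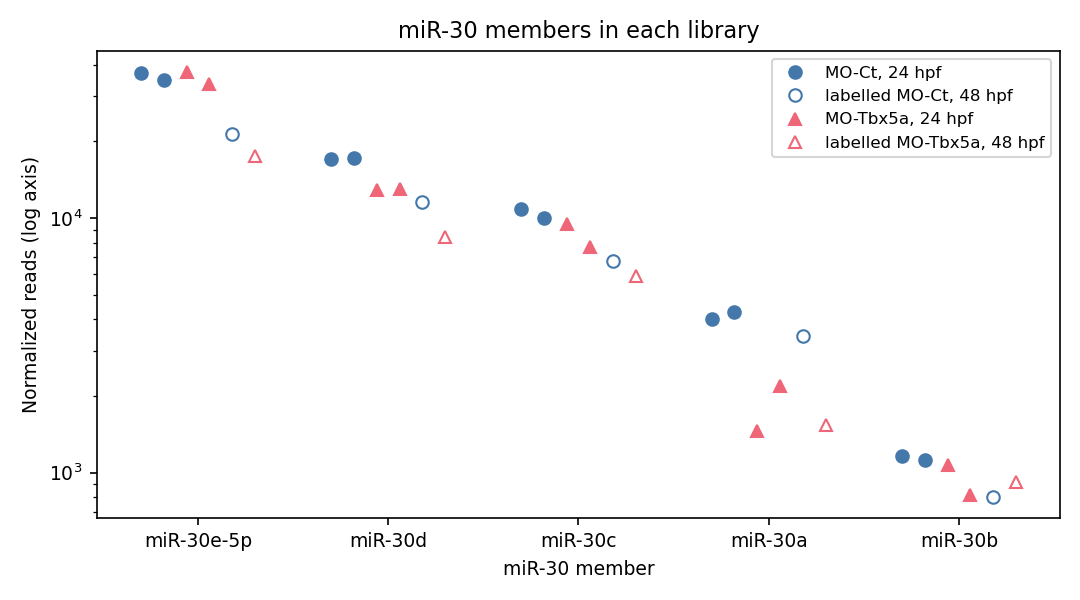
Normalized reads (log axis) of the 5 miR-30 members, 1 point per library. Circles are MO-Ct and triangles MO-Tbx5a, filled at 24 hpf and open at 48 hpf, where the names are those of the labels and in doubt. For miR-30a the MO-Tbx5a points at 24 hpf, 1452 and 2189, lie below the MO-Ct points, 3993 and 4292, and the points at 48 hpf are 3440 (labelled MO-Ct) and 1532 (labelled MO-Tbx5a).

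At 24 hpf, miR-30a was the member that differed most between the morpholinos. It had 3993 and 4292 normalized reads in MO-Ct batches 1 and 2, and 1452 and 2189 in MO-Tbx5a batches 1 and 2. The higher MO-Tbx5a library thus lay well under the lower MO-Ct library. The MO-Tbx5a mean was 1821 ± 521 and the MO-Ct mean 4143 ± 211 (SD, n = 2 libraries each), and the log2 fold change was -1.21 (standard error 0.16), which is 43.1% of the control level. In the fit over all 210 miRNAs tested, this was the value at rank 3 from the lowest.

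miR-30d came next and had the smallest spread between batches. It had 17002 and 17199 normalized reads in the MO-Ct batches and 12884 and 12952 in the MO-Tbx5a batches. The batches of a group differed by 0.02 and 0.01 on the log2 scale, and the nearest libraries of the groups were 0.39 apart. Its log2 fold change was -0.40 (standard error 0.15). The standard error comes from a spread pooled over miRNAs of like abundance, so it is far wider than the spread of miR-30d itself.

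For miR-30c and miR-30b the distance between the morpholinos was close to or below that between the MO-Tbx5a batches on the log2 scale. miR-30c had 10877 and 9980 normalized reads in the MO-Ct batches, and 9442 and 7695 in the MO-Tbx5a batches. miR-30b had 1162 and 1119 in the MO-Ct batches, and 1067 and 815 in the MO-Tbx5a batches. In both miRNAs the groups did not overlap, but MO-Tbx5a batch 1 lay just under the lower control library, by 0.08 for miR-30c and 0.07 for miR-30b on the log2 scale. The MO-Tbx5a batches themselves were 0.30 and 0.39 apart. The log2 fold change was -0.29 for each, with standard errors of 0.15 and 0.18.

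miR-30e-5p, the most abundant member, overlapped between the groups. It had 36934 and 34916 normalized reads in the MO-Ct batches, and 37418 and 33475 in the MO-Tbx5a batches. The MO-Tbx5a libraries were the highest and the lowest of the 4. The log2 fold change was -0.02 (standard error 0.16).

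Of the 5 members, 1, miR-30a, was called by limma at an adjusted p under 0.05, where 7.62% of all 210 miRNAs tested were called in either direction and 4.29% lower. The study's own DESeq test listed both miR-30a and miR-30d as lower at this stage. Both MO-Tbx5a libraries lay below both MO-Ct libraries for 4 of the 5 members, and for 29.5% of all miRNAs. In either direction, the groups did not overlap for 52.4% of all miRNAs. The rule used this contrast, so nothing is read from these counts. The median log2 fold change was -0.29 over the members and -0.01 over all miRNAs. The call of miR-30a was lost when the libraries were scaled by their totals, without the variance trend, or without either MO-Ct library, where 0 members were called and 3, 1, 2 and 2 had an unadjusted p under 0.05 from limma. Its log2 fold change lay between -1.51 and -0.92 with each library left out in turn.

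In normalized reads, the family sum was 68738 ± 1742 in MO-Ct and 59694 ± 3633 in MO-Tbx5a embryos at 24 hpf (SD, n = 2 libraries each). miR-30a accounted for 25.7% of the difference between these means, although it held 6.03% of the control sum. miR-30d accounted for 46.3%, miR-30c for 20.6%, miR-30e-5p for 5.29% and miR-30b for 2.21%. The member with the largest fold difference was therefore not the one with the largest difference in reads.

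The share of a member in the family sum does not depend on how the libraries were scaled. For miR-30a it was 5.71% (95% Wilson interval from the estimated reads 5.51% to 5.91%) and 6.36% (6.18% to 6.54%) in MO-Ct batches 1 and 2 at 24 hpf. In MO-Tbx5a batches 1 and 2 it was 2.33% (2.18% to 2.5004%) and 3.83% (3.69% to 3.98%). At 48 hpf it was 7.83% (7.66% to 8.002%) and 4.47% (4.31% to 4.63%) in the libraries labelled MO-Ct and MO-Tbx5a. The intervals cover counting error only, and the batches of a group lay farther apart than these intervals. As labelled, all 3 MO-Tbx5a libraries were below all 3 MO-Ct libraries, and within each morpholino the share was higher at 48 hpf than in either batch at 24 hpf. With the names exchanged, the MO-Tbx5a library of 48 hpf, at 7.83%, would be the highest of all 6, and the MO-Ct library, at 4.47%, would lie below both MO-Ct batches of 24 hpf.

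**Figure D2:**
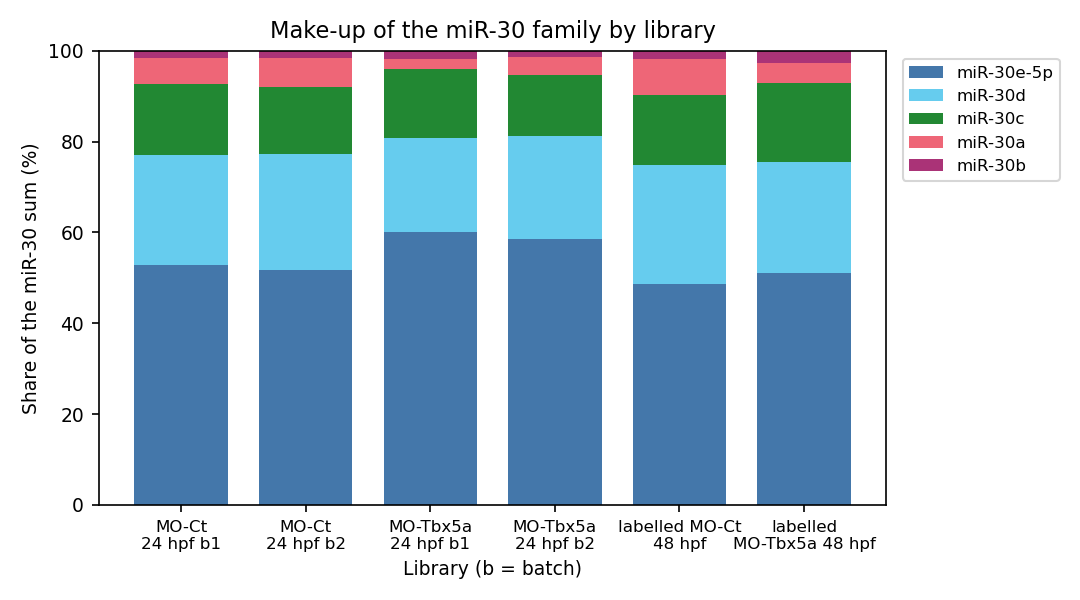
Share of each member in the sum over the 5 miR-30 members (%), 1 stacked bar per library. The miR-30a segment is 5.71% and 6.36% in MO-Ct and 2.33% and 3.83% in MO-Tbx5a at 24 hpf, and the miR-30e-5p segment at the base is taller in the MO-Tbx5a bars at 24 hpf.

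At 24 hpf, the mean level of miR-30e-5p did not rise (35925 in MO-Ct and 35446 in MO-Tbx5a). Other members were lower, so its share of the sum went the other way. It was 52.8% and 51.7% in the MO-Ct batches and 60.1% and 58.6% in the MO-Tbx5a batches, while that of miR-30d was 24.3% and 25.5% against 20.7% and 22.7%. With miR-30a left out, the sum still contained miR-30c and miR-30d, which were also lower in MO-Tbx5a. Of that sum, miR-30e-5p held 55.6% ± 0.528 in MO-Ct and 61.2% ± 0.423 in MO-Tbx5a embryos (SD, n = 2 libraries each). At 48 hpf its share among these 4 relatives was 52.7% and 53.4% in the libraries labelled MO-Ct and MO-Tbx5a, so the gap between the morpholinos was smaller there. The shares of miR-30b and miR-30c overlapped between the groups at 24 hpf.

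Relative to each of its relatives, miR-30a was lower in both MO-Tbx5a libraries than in both MO-Ct libraries at 24 hpf. It amounted to 23.5% and 25.0% of miR-30d in the MO-Ct batches at 24 hpf, and to 11.3% and 16.9% in the MO-Tbx5a batches. At 48 hpf it amounted to 29.7% and 18.2% of miR-30d in the libraries labelled MO-Ct and MO-Tbx5a, so that with exchanged names the MO-Tbx5a library would have the highest ratio of all 6. The mean log2 ratio of miR-30a to a relative at 24 hpf was lower in MO-Tbx5a by 0.81 for miR-30d, 0.92 for miR-30b, 0.93 for miR-30c and 1.19 for miR-30e-5p. With 2 libraries against 2, no exact test over libraries could fall under 0.05, and none was run.

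**Figure D3:**
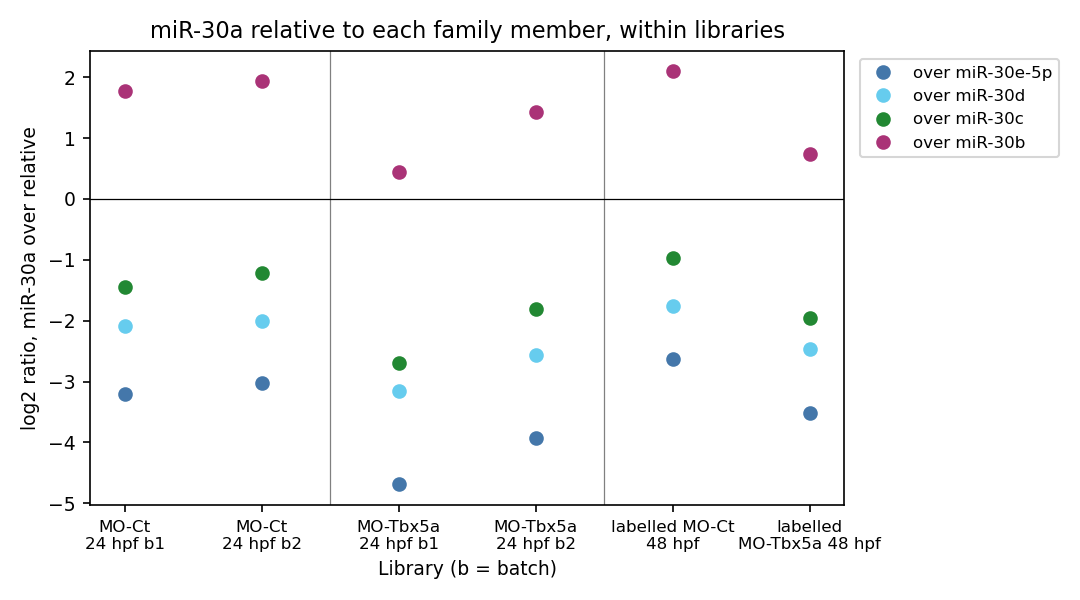
log2 ratio of miR-30a to each relative within a library, 1 column of points per library. All 4 ratios are lowest in MO-Tbx5a batch 1 at 24 hpf, for example -4.69 over miR-30e-5p, and highest in the library labelled MO-Ct at 48 hpf, where the same ratio is -2.63.

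The MO-Tbx5a batches at 24 hpf differed in this respect. From batch 1 to batch 2, miR-30a was higher by 0.59 on the log2 scale, whereas miR-30b, miR-30c and miR-30e-5p were lower by 0.39, 0.30 and 0.16. The log2 ratio of miR-30a to miR-30b was 0.45 in batch 1 and 1.43 in batch 2. In the MO-Ct batches it was 1.78 and 1.94.

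Over the 6 libraries, the 10 ratios between members moved by unequal amounts. The 4 ratios that contain miR-30a moved 2.63-fold to 4.15-fold from their lowest to their highest library, and the 6 others 1.26-fold to 2.16-fold. The family was chosen by the values of miR-30a in these libraries, so the wider span of its ratios follows in part from that choice. The ratio of miR-30d to miR-30b, whose genes are neighbours, ranged from 9.14 to 15.9, a 1.74-fold span. The ratio of miR-30e-5p to miR-30c, the other pair of neighbours, ranged from 2.95 to 4.35, a 1.47-fold span. The narrowest span was that of miR-30c and miR-30d, which are not neighbours, so the ratios of gene neighbours were not the steadiest.

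The mature miR-30a and miR-30d are nearly identical in sequence, and the mapping asked for high but not full identity between read and reference. How many reads of one were counted for the other was not tested. miR-30a was the less abundant of the pair in every library, at 11.3% to 29.7% of miR-30d, so the same number of miscounted reads would weigh more on its value.

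At 48 hpf, where the libraries labelled MO-Ct and MO-Tbx5a are given in this order, miR-30a had 3440 and 1532 normalized reads. The estimated reads behind these values numbered 7377 and 2799. The log2 ratio of MO-Tbx5a over MO-Ct was -1.17, with a counting interval of -1.23 to -1.10, which leaves out the variation between batches. With the names exchanged it was 1.17, opposite in direction to 24 hpf. For miR-30d the values were 11586 and 8414, a log2 ratio of -0.46. For miR-30e-5p they were 21349 and 17493, a log2 ratio of -0.29, and for miR-30c 6760 and 5928, a log2 ratio of -0.19. miR-30b was the only member with a higher value in the library labelled MO-Tbx5a, 921 against 805, a log2 ratio of 0.19. With exchanged names, miR-30c, miR-30d and miR-30e-5p were at 0.19, 0.46 and 0.29, and miR-30b was at -0.19 and the only lower member.

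One library per morpholino allows no check on replicates at 48 hpf. All these directions rest on the doubted names of the libraries. The study lists miR-21 and miR-34a as higher in MO-Tbx5a at this stage. It reports that qRT-PCR upheld the changes it measured, except that of miR-210-5p. In the libraries labelled MO-Ct and MO-Tbx5a, miR-21 had 39188 and 13211 normalized reads and miR-34a 541 and 83.7, the opposite direction. Which name is right was not tested. Of the 5 members, 1 was at least 2-fold lower in the library labelled MO-Tbx5a, where 9.13% of 219 miRNAs were and 25.6% passed 2-fold in either direction. It was miR-30a. In all, 4 members were below the library labelled MO-Ct, where 52.1% of miRNAs were. The median log2 ratio was -0.29 over the members and -0.06 over all miRNAs. When library totals were used for scaling, the median of all miRNAs shifted by 0.16 and the log2 ratio of miR-30a was -1.01. At this stage the libraries also differed in the miR-430 share given above, and its part in these ratios was not tested.

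**Figure D4:**
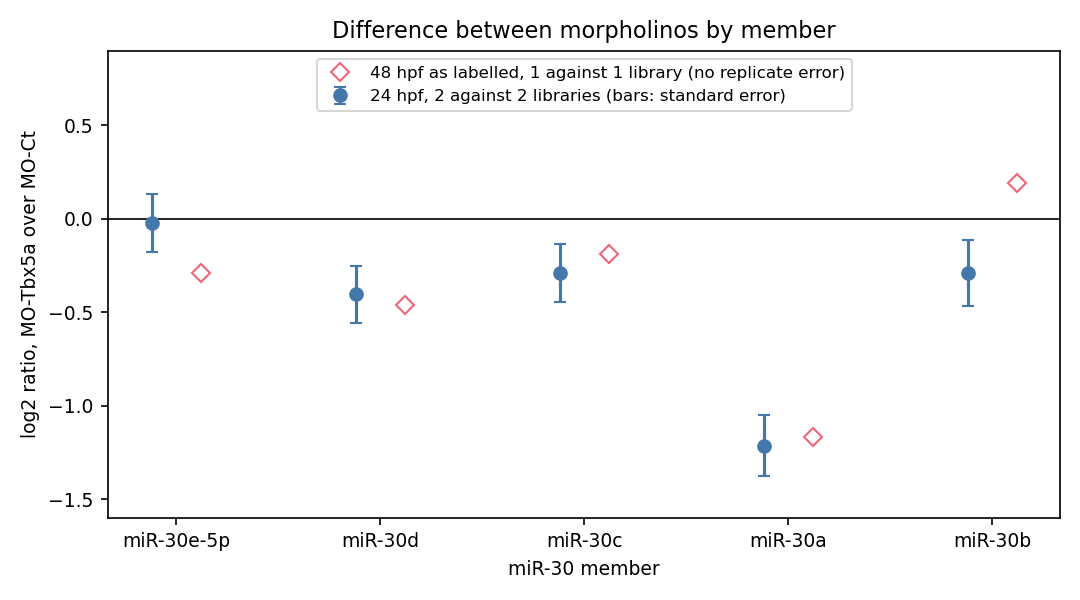
log2 ratio of MO-Tbx5a over MO-Ct for each member. Filled circles are 24 hpf with the standard error of the limma fit (2 against 2 libraries), and open diamonds are 48 hpf (1 against 1 library as labelled, no replicate error). miR-30a is at -1.21 and, as labelled, at -1.17, which is 1.17 with the doubted names of the 48 hpf libraries exchanged.

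From 24 to 48 hpf, the direction of the levels depended on the scaling, while the miR-430 share of the libraries was far lower at 48 hpf. On the deposited scale and with the 48 hpf libraries as labelled, all 5 members had fewer normalized reads in MO-Ct at 48 hpf than in either MO-Ct batch at 24 hpf, where 54.4% of 217 miRNAs did. The log2 ratios of 48 over 24 hpf ranged from -0.75 for miR-30e-5p to -0.27 for miR-30a. Of the members, 0 were at least 2-fold lower, where 15.7% of miRNAs were and 27.6% passed 2-fold in either direction. In MO-Tbx5a, miR-30c, miR-30d and miR-30e-5p were below both batches at 24 hpf, where 58.6% of 222 miRNAs were, while miR-30a and miR-30b lay between them. miR-30e-5p was at least 2-fold lower there, at a log2 ratio of -1.02, where 29.3% of miRNAs were, and the direction of each of these ratios flips with library totals. That scaling shifted the median over all miRNAs up by 1.25 in MO-Ct and by 1.49 in MO-Tbx5a, on the log2 scale, and turned all 5 members positive in both. As a share of the whole library, the family held 2.20% and 2.53% in the MO-Ct batches at 24 hpf and 3.71% at 48 hpf, and 1.96% and 2.03% against 3.23% in MO-Tbx5a.

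Within the family, where scaling cancels, the members did not shift alike with stage. As labelled, the share of miR-30e-5p in MO-Ct was 48.6% at 48 hpf, below both batches at 24 hpf, and those of miR-30a, miR-30b and miR-30d were above both. In MO-Tbx5a the share of miR-30e-5p was 51.0% at 48 hpf, and the shares of the other 4 members were above both batches at 24 hpf. Under exchanged names, the MO-Ct shares of miR-30e-5p (51.0%) and miR-30a (4.47%) would lie below both batches at 24 hpf. Those of miR-30b (2.69%) and miR-30c (17.3%) would lie above both, and that of miR-30d (24.5%) between them. The directions in MO-Tbx5a would stay the same. With the names exchanged, miR-30a had a log2 ratio of 48 over 24 hpf of -1.43 in MO-Ct and 0.95 in MO-Tbx5a on the deposited scale, while the other members were lower at 48 hpf in both, from -1.04 to -0.16. The 48 hpf library labelled MO-Ct enters both its stage change and the ratio between morpholinos at 48 hpf, as does that labelled MO-Tbx5a.

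The opposite arm, miR-30e-3p, was itself abundant. It had 3189 and 2268 normalized reads in the MO-Ct batches and 3122 and 2663 in the MO-Tbx5a batches at 24 hpf, and 1286 and 949 in the libraries labelled MO-Ct and MO-Tbx5a at 48 hpf, more than miR-30b in every library. The groups overlapped, with a log2 fold change of 0.10 (standard error 0.16). The ratio of the 5p to the 3p arm was 11.6 and 15.4 in MO-Ct, 12.0 and 12.6 in MO-Tbx5a at 24 hpf, and 16.6 and 18.4 at 48 hpf in the libraries labelled MO-Ct and MO-Tbx5a. The ratio was above every library of 24 hpf in both libraries of 48 hpf.

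Over the 6 libraries and on the deposited scale, the miRNAs whose log2 values followed miR-30a most closely were not its relatives. Among 194 miRNAs with at least 10 normalized reads in every library, Pearson's r with miR-30a was 0.88 for miR-92b, 0.84 for miR-133b-3p and 0.81 for miR-738. Of the relatives, miR-30d stood at rank 7 with r = 0.72, miR-30c at rank 25 with 0.46, miR-30e-5p at rank 62 with 0.26 and miR-30b at rank 63 with 0.26. By comparison, miR-30c had r = 0.93 with miR-30d and 0.92 with miR-30e-5p. These values describe 6 libraries that share stages, morpholinos and size factors. They were taken on the deposited scale only. Library totals turn the stage change of the members, so r and the ranks can differ on that scale, which was not tested.

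On the deposited scale, miR-92b was the closest in pattern. It had 49720 and 53765 normalized reads in the MO-Ct batches and 28156 and 38944 in the MO-Tbx5a batches at 24 hpf. As with miR-30a, MO-Tbx5a batch 1 was the lower. At 48 hpf it had 35147 and 21895 in the libraries labelled MO-Ct and MO-Tbx5a.

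Other families with the same miRNA number were less spread at 24 hpf. Between its lowest and highest log2 fold change, the miR-30 family with its 6 listed miRNAs spanned 1.31, the widest of 21 families with at least 3 miRNAs tested, and 1.19 without miR-30e-3p. let-7 followed with 1.05, and the narrowest was miR-126 with 0.11. The median was 0.41. Without miR-30a, the 4 relatives spanned 0.38. The family was chosen for this gap, so its place is a description.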

How the data were processed

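Small RNA from 6 libraries was analysed. Per the paper's methods and the labels, the authors demultiplexed reads with CASAVA 1.8, trimmed adapters with Cutadapt, mapped them to miRBase precursors with miRExpress, summed them per miRNA and scaled each library with a DESeq size factor. What was deposited is thus a signal, not counts. Low values were whole multiples of a step, taken as 1 read, and 98.95% to 100% of values lay within 0.1 reads of such a multiple. A test for counts was not run. Batches within each group lay farther apart than sampling noise allows (chi-square per degree of freedom 104 and 92.7), and replicates are separate batches of embryos.

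Values were averaged per mature miRNA. limma 3.58.1 (R 4.3.3) with a variance trend was fitted at 24 hpf to log2 of the value plus 2, for miRNAs with at least 10 in at least 2 libraries, two-sided, with Benjamini-Hochberg adjustment, and was tested on simulated data. log2 ratios understate changes of low miRNAs. Named besides the members were the 3 miRNAs most correlated with miR-30a, the widest and narrowest families, and list miRNAs. Members and lists were chosen with earlier results of these data known. Python 3.11.15 was used. Alternatives were other scalings, filters, pseudocounts, fits and precursor summaries, and leaving out libraries.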

Additional observations from a re-analysis of the deposited data

Results flagged for a closer look

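miR-30b was lower in both MO-Tbx5a libraries than in both MO-Ct libraries at 24 hpf, and at 48 hpf it was higher in the library labelled MO-Tbx5a, with a log2 ratio of 0.19. The names of the 48 hpf libraries are in doubt, and with the names exchanged the log2 ratio was -0.19, the same direction as at 24 hpf. The difference between the stages was not tested, 48 hpf has 1 library per morpholino, and the distance between the nearest libraries at 24 hpf was 0.07 on the log2 scale.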

How the results depend on the processing

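At 24 hpf, 16 miRNAs were called by limma, against 6 when size factors were median ratios, 0 on the scale of library totals (38 before adjustment at p under 0.05), 1 without the variance trend, and 0 to 16 with each library left out, where 0 to 1 members were called. Of the members, 1 was called, against 0 with library totals and 0 without the trend. With a replicate block, 39 miRNAs were called, 12 higher and 27 lower, and 3 members, miR-30a, miR-30c and miR-30d. Equal batch numbers are not said to share anything, and the deviations of batch 2 from batch 1 in both groups had a correlation of r = 0.28 over 210 miRNAs. Of the calls, 7 were higher and 9 lower, and 3 and 9 under a filter of 10 in every library. The log2 ratio of miR-30a at 48 hpf was -1.01 with library totals and 1.17 with the library names exchanged, an alternative chosen after seeing the data, as were counting miR-30e-3p in the sum and taking 3p arms into the lists. From 24 to 48 hpf, miR-30a had a log2 ratio of 1.03 in MO-Ct with library totals and -0.054 with median-ratio size factors, against -0.27 as deposited, and of 1.28 in MO-Tbx5a with library totals against -0.22. miR-30e-5p went from -1.02 to 0.48 in MO-Tbx5a with library totals. With the library names exchanged, these ratios of miR-30a were -1.43 in MO-Ct and 0.95 in MO-Tbx5a. The difference in the miR-30a share at 24 hpf, -2.95 percentage points, does not depend on the scaling or on the summary of precursors by construction, and was -2.86 with miR-30e-3p in the sum and -3.70 to -2.20 with each library left out. The fewest reads of a member were those of miR-30b, an estimated 570 to 1727 per library.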
